A study of Rattus norvegicus with 6 samples.

Results

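The 38 genes described here encode the machinery of mitosis: the kinases and cyclins that start it, the checkpoint, the kinetochore, the motors of the spindle, the proteins that open anaphase and those that divide the cell. They were chosen by gene symbol, with earlier results of these data known, and all 38 were found among the 17954 genes in the files. Their messenger RNA was measured in 6 sequencing libraries, 3 titled as condylar chondrocytes in 2D culture and 3 as condylar organoid. Condylar chondrocytes are the cells of the cartilage that caps the rat mandible. In the 3 libraries of 2D culture the cells had been kept as a flat layer in DMEM with 20% fetal bovine serum and antibiotics. The 3 libraries of condylar organoid came from condylar cartilage organoids, 3D cultures meant to resemble the tissue, held in a chondrogenic medium. The labels do not say how the organoids were built. Both were kept at 37 °C with 5% CO2. The labels name neither rat strain, age nor time in culture, and do not call the 3 libraries of a group separate animals or separate cultures. A p-value here therefore sets the difference between the groups against the spread of these libraries, and that spread may be technical. Format, medium and serum differed together between the groups, and their parts in any difference cannot be told apart.

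Mitotic genes are switched on late in the cell cycle, after DNA has been copied, and some of their products are destroyed as the cell divides. In promoters of this group a short element called the cell cycle homology region (CHR) is bound by the MuvB core, which joins with repressor proteins in resting cells and with MYBL2 and FOXM1 in dividing cells. CCAAT boxes, bound by the factor NF-Y, often lie nearby. Chondrocytes in a flat layer with serum divide, whereas those of mature cartilage divide little.

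Levels are CPM (a gene's share of the library's counts) after TMM scaling, given for each library, and a log2 fold change is organoid over 2D culture ± SE. A gene was called when edgeR's quasi-likelihood test, fitted over all genes, gave an adjusted p under 0.05. Genes counted as having fallen or risen are called genes. Library totals were 18592574 to 26472447 counts. The 2D cultures resembled each other closely (Spearman correlation of log2 CPM across genes 0.992 to 0.994), the organoids less so (0.847 to 0.913). Cartilage identity differed between the groups too: 7 of 8 chondrocyte markers and 8 of 8 osteoblast markers were called higher in organoids. Of the fibroblast markers 2 were higher and 3 lower, with sums of 10237 to 11704 CPM in 2D culture and 4223 to 9123 CPM in organoids. The summed level of 8 leukocyte and macrophage markers was 7.55 to 10.3 CPM in 2D culture and 16.7 to 64.2 CPM in organoids, with Adgre1 at 0 in every library and Ptprc at most at 0.142 CPM, and 1 of the 3 tested was called, Lyz2, higher. For 7 endothelial markers the sums were 0.52 to 0.805 and 0.142 to 4.71 CPM, with Cdh5, Tie1 and Emcn at 0 in all 2D cultures and Kdr at 0 in all organoids, and 0 of the 1 tested was called. For 4 osteoclast markers in the files they were 139 to 142 and 103 to 265 CPM, most of it from Ctsk, with Tnfrsf11a at 0 in all organoids, and 1 of the 2 tested was called, Acp5, higher. The part of these cells in the results was not tested.

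Mitosis and spindle genes were lower in organoids. All 38 passed the filter on low counts and were tested, 29 fell, 0 rose and 9 did not pass. Of all 13052 genes tested 12.6% were called lower and 14.9% higher, 27.5% in either direction. When libraries were scaled by their totals alone, 34 members fell and 0 rose, while the calls over all genes went from 1650 lower and 1944 higher to 3529 lower and 1063 higher. Without organoid 1, 2 and 3 the number that fell was 20, 26 and 35, and without 2D culture 1, 2 and 3 it was 13 in each case. Those 13 were the same genes each time: Birc5, Bub1b, Cdca8, Cenpe, Ect2, Espl1, Kif2c, Ndc80, Nuf2, Plk1, Tpx2, Ttk and Ube2c. They also stayed past the threshold in every other alternative fit. Each of the other 16 calls was lost when any 1 of the 2D libraries was left out. For Cdk1 the adjusted p was then 0.0553, 0.0512 and 0.0531. Over all genes, 399, 437 and 406 were called lower without 2D culture 1, 2 and 3, in place of 1650. Without organoid 1 the calls of Ccnb1, Ccnb2, Aurka, Bub1, Mad2l1, Kif20a, Kif23, Cenpa, Cdc20 and Prc1 were lost, without organoid 2 those of Ccnb1, Mad2l1 and Kif4a, and without organoid 3 that of Anln.

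The fitted change was negative for all 38 and ran from -0.65 (Pttg1) to -3.82 (Ttk), with a median of -2.17, a 4.50-fold lower level, beside a median of -0.03 over all genes tested. A fall of at least 2-fold was fitted for 35 members and of at least 4-fold for 23. In 37 of 38 every organoid lay below every 2D culture, beside 30.2% of all genes tested, and Pttg1 was the exception. With fewer dividing cells and with less transcript per dividing cell the same values would be read in a bulk sample, and the 2 cannot be told apart here.

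**Figure D1:**
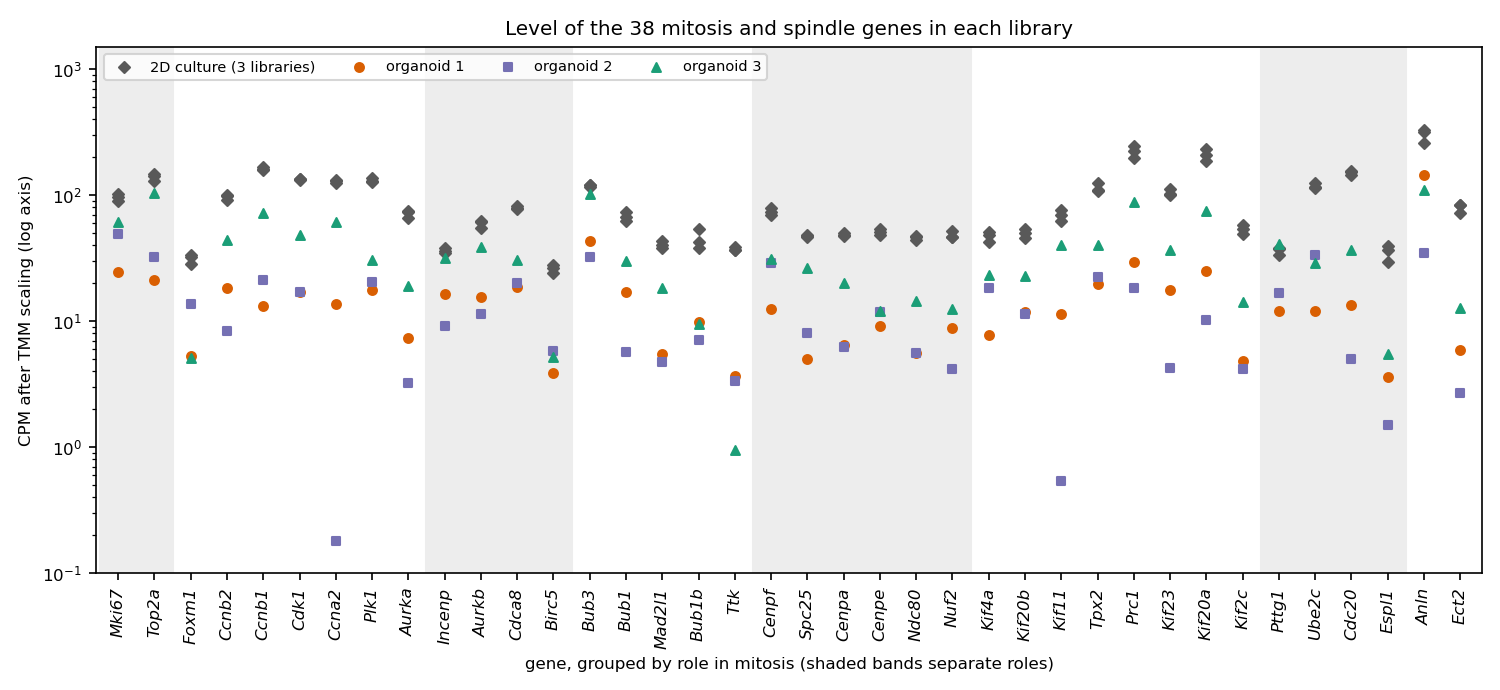
CPM after TMM scaling (log axis) of each of the 38 mitosis and spindle genes in each of the 6 libraries, grouped by role, with grey diamonds for the 3 2D cultures and coloured symbols for the organoids. The diamonds lie close together and above the organoids for every gene except Pttg1, and organoid 3 (triangles) is the highest organoid for 32 of the genes.

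Added over the 38 genes, the level was 3491, 3239 and 3494 CPM in 2D culture 1, 2 and 3, and 638, 513 and 1406 CPM in organoid 1, 2 and 3. Relative to the mean of the 2D cultures, the organoids stood at 18.7%, 15.0% and 41.3%. The sum leans on the most abundant transcripts. The median over the single genes, each set against its own mean in 2D culture, was 15.7%, 13.0% and 37.7% in organoid 1, 2 and 3. Organoid 3 thus kept the most mitotic transcript by either measure, and no organoid reached the level of a 2D culture.

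The promoters of the members were searched for the elements named above. A RefSeq table (assembly GRCr8, not necessarily the build of the files) held a promoter for 32 of the 38 (not for Ccna2, Foxm1, Aurkb, Incenp, Tpx2 and Ube2c). The 250 bases before each start were searched on both strands for TTTGAA or TTCGAA, taken here as the CHR letters, and for CCAAT. Other forms of the CHR were not searched, so a promoter without a match may still hold one. A CHR match was found in 18 of 32 (56.2%) and a CCAAT match in 24 (75%), with both in 16 (50%), against 18.5%, 36.1% and 6.8% of the 27457 genes in the table. Among the 10615 tested genes with a promoter there, the shares were 13.1%, 37.1% and 5%. The E2F letters TTTCCCGC, TTTGGCGC, TTTCGCGC or TTTGCCGC were found in 1 member (3.1%), Cdk1, against 1.9% of the table and 3.5% of those tested genes. These shares describe the letters only.

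The 120 bases before the start are shown for 9 members, chosen to set genes of different response beside each other, with CHR and CCAAT matches of either strand in capitals. Cdk1, Cdc20 and Espl1 fell and carry both motifs, as do Top2a, Bub3 and Pttg1, which did not pass. Ccnb1 and Plk1 fell with a CCAAT match but no match to the CHR letters searched, and Nuf2 fell with a match to neither. In Mki67 and Cdca8, not shown, the CHR letters and a reversed CCAAT overlap by 1 base (TTTGAATTGG).
Cdk1: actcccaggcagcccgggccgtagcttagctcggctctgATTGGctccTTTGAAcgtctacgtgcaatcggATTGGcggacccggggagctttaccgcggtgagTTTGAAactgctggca
Cdc20: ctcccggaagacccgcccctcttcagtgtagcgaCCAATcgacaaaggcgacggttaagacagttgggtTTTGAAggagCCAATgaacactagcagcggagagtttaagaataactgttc
Espl1: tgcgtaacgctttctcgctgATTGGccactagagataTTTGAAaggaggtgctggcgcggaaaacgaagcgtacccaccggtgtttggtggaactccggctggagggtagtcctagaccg
Top2a: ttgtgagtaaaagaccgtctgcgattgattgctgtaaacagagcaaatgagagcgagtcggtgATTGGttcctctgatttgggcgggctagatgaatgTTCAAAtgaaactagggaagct
Bub3: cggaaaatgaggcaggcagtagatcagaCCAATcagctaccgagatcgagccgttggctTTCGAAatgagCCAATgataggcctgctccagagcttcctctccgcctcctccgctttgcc
Pttg1: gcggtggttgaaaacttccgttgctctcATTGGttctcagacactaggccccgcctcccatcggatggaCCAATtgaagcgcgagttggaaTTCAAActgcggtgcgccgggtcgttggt
Ccnb1: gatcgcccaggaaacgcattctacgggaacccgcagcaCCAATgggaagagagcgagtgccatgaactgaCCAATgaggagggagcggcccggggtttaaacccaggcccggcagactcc
Plk1: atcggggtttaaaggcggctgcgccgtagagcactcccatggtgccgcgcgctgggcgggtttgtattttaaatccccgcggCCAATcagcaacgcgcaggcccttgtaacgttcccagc
Nuf2: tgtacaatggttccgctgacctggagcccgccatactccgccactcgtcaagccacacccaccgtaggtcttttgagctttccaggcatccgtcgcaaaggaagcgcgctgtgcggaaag

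These windows lie in GRCr8 as follows: Cdk1 (gene ID 54237) at chr20:19265173-19265292 (plus strand), Cdc20 (gene ID 64515) at chr5:137255800-137255919 (minus strand), Espl1 (gene ID 315330) at chr7:135302596-135302715 (plus strand), Top2a (gene ID 360243) at chr10:84473094-84473213 (minus strand), Bub3 (gene ID 361662) at chr1:195760412-195760531 (plus strand), Pttg1 (gene ID 64193) at chr10:28406327-28406446 (minus strand), Ccnb1 (gene ID 25203) at chr2:33655226-33655345 (minus strand), Plk1 (gene ID 25515) at chr1:186147538-186147657 (plus strand) and Nuf2 (gene ID 304951) at chr13:84255599-84255718 (minus strand). Counted from the first base of a match to the start, the CHR letters stand 16 and 72 bases before the start in Cdk1, 51 in Cdc20, 83 in Espl1, 22 in Top2a (a second match lies 152 bases before, outside the window shown), 61 in Bub3 and 29 in Pttg1. Their CCAAT letters lie from 41 to 100 bases before the start in those windows. Members with both motifs fell in 11 of 16 cases (median log2 fold change -2.09) and members without both in 15 of 16 (median -2.28). Over all tested genes with a promoter in the table, 17.1% of 532 genes with both motifs and 12.4% of 10083 others were called lower. Whether these shares differ was not tested.

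The genes that bring a cell into mitosis were called lower, apart from 1 cyclin whose negative change did not pass. Cdk1, the kinase that drives entry, was at 132, 134 and 133 CPM in 2D culture 1, 2 and 3 and at 17.0, 17.1 and 47.9 CPM in organoid 1, 2 and 3. Organoids 1 and 2 were nearly equal and organoid 3 stood above them, still far below the 2D cultures. The change was -2.28 ± 0.45 (edgeR adjusted p = 0.0126). Its partner Ccnb1, cyclin B1, went from 169, 157 and 163 CPM to 13.2, 21.2 and 72.2 CPM, with the same order of organoids (-2.19 ± 0.62, edgeR adjusted p = 0.0398). Ccnb2, the second B-type cyclin, fell by 2.03 on the log2 scale, from 101, 90.8 and 98.3 CPM to 18.4, 8.41 and 44.1 CPM.

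Ccna2, cyclin A2, which acts in S phase and up to mitosis, was the uneven member. It was at 132, 124 and 129.8 CPM in the 2D cultures and at 13.7, 0.18 and 61.7 CPM in the organoids, which is 232, 3 and 1303 counts. Organoid 2 was almost empty of it while Cdk1 and Ccnb1 in the same library were like organoid 1. Its change of -2.35 ± 1.32 did not pass (edgeR adjusted p = 0.229) and had the largest SE of the 38. With limma-voom and a weight per group it passed (adjusted p = 0.0201), which was the only alternative fit to call it.

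Plk1, a kinase of mitotic entry, centrosomes and cytokinesis, gave one of the firmest differences, from 129, 128 and 136 CPM to 17.6, 20.4 and 30.6 CPM (-2.52 ± 0.26, edgeR adjusted p = 0.00148). The 3 organoids lay close together for it. Aurka, the kinase of spindle poles, fell from 73.3, 66.2 and 75.2 CPM to 7.31, 3.24 and 19.1 CPM, a 7.21-fold lower fitted level (-2.85 ± 0.62, edgeR adjusted p = 0.0176). Its organoids spread widely. Foxm1, the transcription factor that activates many genes of this group, fell from 28.4, 32.4 and 33.7 CPM to 5.30, 13.6 and 5.06 CPM (-1.98 ± 0.45, edgeR adjusted p = 0.02). For Foxm1 it was organoid 2 that was highest, and organoid 3 was as low as organoid 1.

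**Figure D2:**
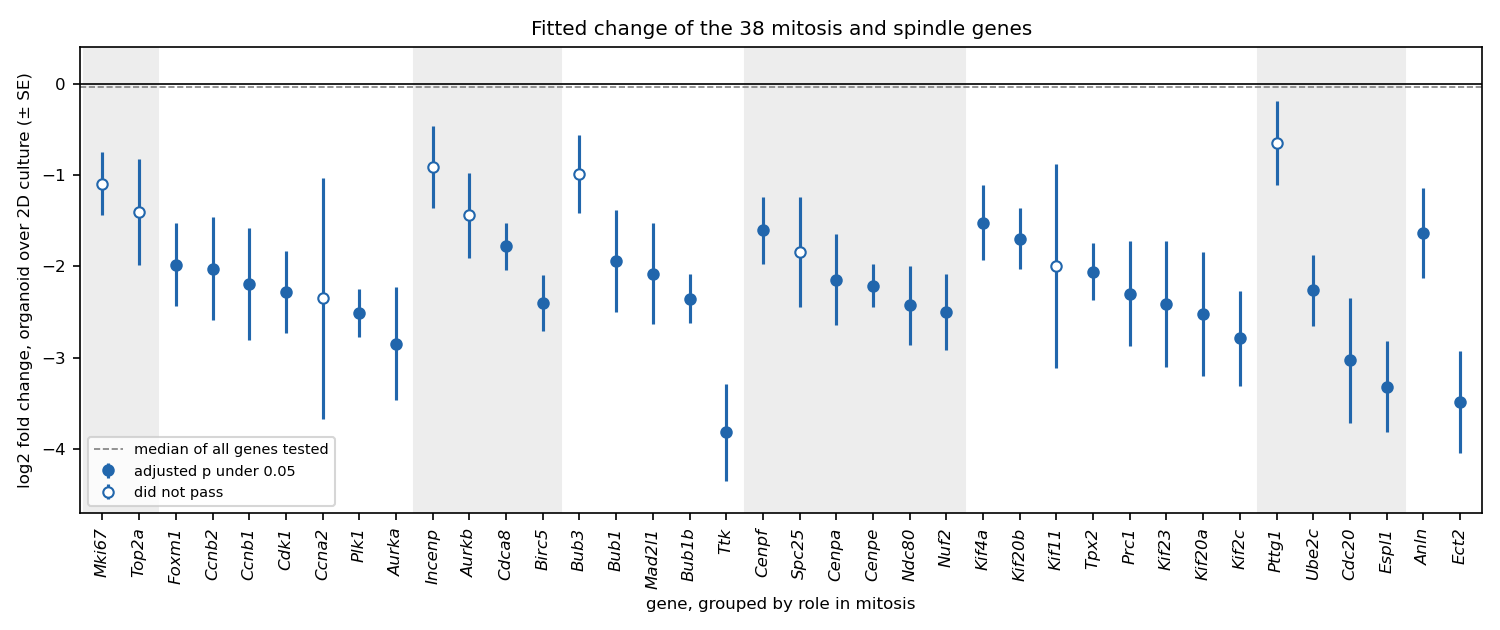
Log2 fold change of organoid over 2D culture with its SE for each of the 38 genes, grouped by role, with filled circles for genes past an adjusted p of 0.05 in edgeR's quasi-likelihood test. All 38 lie below 0, from Pttg1 at -0.65 to Ttk at -3.82, and the 9 open circles are the genes that did not pass.

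The common stains for dividing cells were among the least changed members. Mki67, which coats mitotic chromosomes and serves as the standard marker of proliferation, was at 96.5, 102 and 90.5 CPM in 2D culture and at 24.6, 49.0 and 61.6 CPM in organoids (-1.10 ± 0.34, edgeR adjusted p = 0.0548). The groups did not overlap, yet organoid 3 kept 63.9% of the 2D mean. Top2a, the topoisomerase that untangles sister chromatids, stood at 146, 129 and 143 CPM and 21.1, 32.0 and 105 CPM, so that organoid 3 retained 75.2% and organoid 1 15.1% (-1.40 ± 0.58, edgeR adjusted p = 0.117). Neither passed. Without organoid 3 both did, Mki67 at -1.40 and Top2a at -2.40 on the log2 scale (adjusted p = 0.0289 and 0.00388), and Mki67 also passed without organoid 1 (adjusted p = 0.0344). Mki67 passed with total library size, DESeq2 and both limma-voom fits as well, and Top2a with both limma-voom fits.

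The chromosomal passenger complex, which corrects faulty attachments and later directs cytokinesis, divided into members that fell and members that did not pass. Birc5, survivin, fell from 23.9, 28.0 and 26.49 CPM to 3.89, 5.77 and 5.20 CPM (-2.40 ± 0.31, edgeR adjusted p = 0.00282), and all 3 organoids were similar. Cdca8, borealin, fell from 82.1, 77.0 and 79.3 CPM to 18.62, 20.0 and 30.6 CPM (-1.78 ± 0.26, edgeR adjusted p = 0.00444). Both are small subunits that place the complex at the centromere. Aurkb, its kinase, was at 61.2, 55.0 and 62.7 CPM and 15.6, 11.4 and 38.8 CPM, short of the threshold (-1.44 ± 0.47, edgeR adjusted p = 0.0601). Incenp, the scaffold that activates the kinase, was at 35.8, 34.7 and 37.9 CPM and 16.4, 9.13 and 31.8 CPM, also short of the threshold (-0.91 ± 0.44, edgeR adjusted p = 0.172). In organoid 3 Incenp reached 88.2% of the 2D mean and Birc5 19.9%, whereas in organoid 2 they were at 25.3% and 22.1%. The difference between the genes was not tested. Without organoid 3, Aurkb and Incenp passed (adjusted p = 0.00387 and 0.0196), as both did with total library size, and Aurkb also with DESeq2 and both limma-voom fits.

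Among the genes of the spindle checkpoint, which holds anaphase until every chromosome is attached, 4 of 5 fell. Ttk, the kinase at the head of the checkpoint (also called Mps1), had the largest change of all 38, from 38.9, 36.7 and 36.4 CPM to 3.65, 3.36 and 0.946 CPM (-3.82 ± 0.53, 14.1-fold lower, edgeR adjusted p = 0.00408). It is 1 of the 2 members, with Foxm1, for which organoid 3 was the lowest organoid. Bub1b, BubR1, which restrains Cdc20, fell from 42.5, 38.3 and 53.7 CPM to 9.78, 7.09 and 9.42 CPM (-2.35 ± 0.27, edgeR adjusted p = 0.00189). Bub1, a kinase that docks the checkpoint at kinetochores, and Mad2l1, which forms the inhibitor of Cdc20, fell by 1.94 and 2.08 on the log2 scale. Bub1 went from 73.4, 62.8 and 67.6 CPM to 17.0, 5.71 and 30.2 CPM and Mad2l1 from 43.0, 38.2 and 40.1 CPM to 5.48, 4.75 and 18.4 CPM, both with organoid 3 highest and organoid 2 lowest.

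Bub3, the remaining checkpoint gene, did not pass. It was at 119, 119.8 and 115 CPM in 2D culture and at 43.3, 32.4 and 102 CPM in organoids (-0.99 ± 0.43, edgeR adjusted p = 0.132). Organoids 1 and 2 were clearly lower and organoid 3 almost level with the 2D cultures, at 86.6% of their mean. Bub1 and Bub1b, which bind Bub3, were at 44.5% and 21.0% in the same library, and the difference between the genes was not tested. Without organoid 3 its change was -1.65 and passed (adjusted p = 0.00556), and it passed with total library size and with limma-voom and a weight per group.

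At the centromere and kinetochore, the plate on each chromosome that grips the spindle, 5 of 6 members fell, by 1.61 to 2.50 on the log2 scale. Cenpe, a kinesin that carries chromosomes to the spindle equator, had the lowest adjusted p of all 38, falling from 48.7, 54.1 and 50.8 CPM to 9.19, 11.9 and 12.1 CPM (-2.21 ± 0.23, edgeR adjusted p = 0.0014). Its 3 organoids hardly differed. Ndc80 and Nuf2 are paired subunits of the complex that holds microtubules, and they fell alike: Ndc80 from 46.6, 44.4 and 47.3 CPM to 5.60, 5.59 and 14.5 CPM (-2.43 ± 0.43), and Nuf2 from 51.7, 46.2 and 46.1 CPM to 8.78, 4.15 and 12.5 CPM (-2.50 ± 0.42), with edgeR adjusted p = 0.0093 and 0.00742.

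Spc25, which belongs to the same complex, did not pass, with 46.7, 47.1 and 48.5 CPM and 5.01, 8.11 and 26.3 CPM (-1.85 ± 0.60, edgeR adjusted p = 0.0616), with organoid 3 at 55.5% of the 2D mean. It passed without organoid 3 (adjusted p = 0.00338), with total library size, with DESeq2 and with both limma-voom fits. Cenpa, the histone H3 variant that marks the centromere, fell by 2.15 and Cenpf, a large protein of the outer kinetochore, by 1.61 on the log2 scale. Cenpa went from 47.5, 47.9 and 49.6 CPM to 6.42, 6.25 and 20.0 CPM and Cenpf from 69.3, 73.3 and 78.6 CPM to 12.4, 28.7 and 31.4 CPM. For Cenpf it was organoid 1 that stood lowest.

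The motors and builders of the spindle fell in 7 of 8 cases. Kif2c, which takes microtubules apart at kinetochores, fell from 54.2, 49.4 and 57.9 CPM to 4.83, 4.15 and 14.3 CPM (-2.79 ± 0.52, edgeR adjusted p = 0.0105). Tpx2, which starts microtubules near chromosomes and activates Aurka, fell from 126, 109 and 108 CPM to 19.9, 22.4 and 40.0 CPM (-2.06 ± 0.31, edgeR adjusted p = 0.0055). These 2 kept their calls in every alternative fit. Prc1, which bundles the microtubules of the central spindle, fell from 245, 197 and 224 CPM to 29.2, 18.2 and 87.9 CPM (-2.30 ± 0.58, edgeR adjusted p = 0.0278), and organoid 3 stood well above the other organoids.

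The other kinesins were called lower, apart from Kif11, whose fitted change was negative too. Kif20a, a motor of cytokinesis, fell from 209.8, 187 and 234 CPM to 24.9, 10.3 and 74.6 CPM (-2.52 ± 0.68, edgeR adjusted p = 0.0345), and Kif23, the motor subunit of the centralspindlin complex, by 2.41 on the log2 scale. Kif20b and Kif4a, which act in cytokinesis and on chromosome arms, fell too, with log2 fold changes of -1.70 and -1.53. Kif23 was at 17.8, 4.27 and 36.9 CPM in the organoids (2D cultures 111, 100.049 and 103), Kif20b at 11.8, 11.4 and 22.9 CPM (53.9, 50.009 and 45.9) and Kif4a at 7.72, 18.2 and 23.3 CPM (51.2, 42.7 and 47.8). Kif11, the motor that pushes the spindle poles apart, was the one that did not pass: it was at 70.1, 62.5 and 75.5 CPM in 2D culture and at 11.4, 0.541 and 40.0 CPM in organoids (-2.00 ± 1.11, edgeR adjusted p = 0.225). As for Ccna2, organoid 2 was nearly without it. It passed with limma-voom and a weight per group (adjusted p = 0.0334).

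The proteins that open anaphase gave 3 falls and the only member whose groups overlapped. Espl1, separase, which cuts the cohesin between sister chromatids, fell from 36.4, 29.5 and 39.8 CPM to 3.59, 1.502 and 5.44 CPM (-3.32 ± 0.50, 9.98-fold lower, edgeR adjusted p = 0.00534). Pttg1, securin, which holds separase inactive until anaphase, was at 37.7, 38.03 and 33.3 CPM in 2D culture and at 12.1, 16.6 and 40.6 CPM in organoids, which did not pass (-0.65 ± 0.46, edgeR adjusted p = 0.331). Organoid 3 exceeded all 2D cultures for Pttg1 and was the highest organoid for Espl1 as well, at 15.5% of the 2D mean. Without organoid 3 Pttg1 was at -1.35 and passed (adjusted p = 0.0117). The difference between the changes of Espl1 and Pttg1 was not tested.

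Cdc20, the activator of the anaphase-promoting complex, fell from 145, 151 and 156 CPM to 13.4, 4.99 and 37.0 CPM (-3.03 ± 0.68, 8.17-fold lower, edgeR adjusted p = 0.0194). Ube2c, the ubiquitin-conjugating enzyme that works with that complex, fell from 113, 125 and 117 CPM to 12.0, 33.2 and 28.7 CPM (-2.26 ± 0.39, edgeR adjusted p = 0.00814). Organoid 1 was the lowest for Ube2c and organoid 2 for Cdc20.

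Both genes of cytokinesis fell. Ect2, the exchange factor that switches on RhoA at the cleavage furrow, fell from 83.3, 72.1 and 83.9 CPM to 5.89, 2.70 and 12.6 CPM (-3.49 ± 0.56, 11.2-fold lower, edgeR adjusted p = 0.00633). Anln, anillin, the scaffold of the contractile ring, went from 316, 257 and 326 CPM to 145, 34.6 and 110.3 CPM and only just passed (-1.64 ± 0.50, edgeR adjusted p = 0.0498). Here organoid 1 was the highest. Its call was also lost with the DESeq2 size factors and with no filter on low counts. Anln, Kif20a, Ccnb2, Ube2c, Aurka and Mki67 had a fractional count in at least 1 library, a sign that reads were shared with another gene, and their values are uncertain to that extent.

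The organoids differed among themselves in a recurring order. Organoid 3 was the highest organoid for 32 of 38 members (84.2%), beside 29% of all genes tested, while organoid 2 was the lowest for 22 and organoid 1 for 14. The order of organoids 1 and 2 depends on the scaling, as their TMM factors were 0.662 and 0.896. Set against library totals alone, the summed level of the members is lower in organoid 1 than in organoid 2. The highest organoid exceeded the lowest by a median of 3.43-fold over the members, from 1.31-fold for Cenpe to 342-fold for Ccna2, and by 2.33-fold over all genes tested with a value above 0 in each organoid. Among the 2D cultures the same ratio had a median of 1.13 over the members. Organoid 3 also had the lowest summed level of the 3 organoids for the leukocyte and macrophage, endothelial, osteoclast and osteoblast markers, as given above for the first 3 and at 20610.1 CPM against 24519 and 27632 for the osteoblast markers. Organoid 2, the lowest organoid for 22 members after TMM scaling, had the lowest sum of chondrocyte markers (11486 CPM, against 99455 in organoid 1 and 30636 in organoid 3) and of fibroblast markers (4223 CPM, against 9123 and 6193). The part of those cells in the order of the organoids was not tested.

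The replication genes, which act before mitosis in the same cycle, fell too. Of 29 DNA synthesis genes 20 (69%) fell and 0 rose (median -1.74). Of 23 genes of the MCM helicase and origin licensing 10 (43.5%) fell and 0 rose (median -2.20). Of all genes tested 12.6% were called lower. Set against each gene's own 2D mean, the median of the mitosis genes was 15.7%, 13.0% and 37.7% in organoid 1, 2 and 3. That of the DNA synthesis list was 26.6%, 20.0% and 39.0%, again with organoid 3 highest. The median of the licensing list was 18.2%, 17.1% and 18.9%. Organoid 3 was the highest for 9 of 23 licensing genes (39.1%) and for 17 of 29 synthesis genes (58.6%), beside 84.2% of the mitosis genes. For the helicase subunit Mcm3 organoid 3 was nearly empty, at 7.66, 6.49 and 0.189 CPM, and its fitted fall was 4.29 on the log2 scale (edgeR adjusted p = 0.0233). Orc1, a subunit of the origin recognition complex, fell by 4.79 on the log2 scale. The largest falls among the synthesis genes were those of Chaf1b, a histone chaperone of replication (-3.66), Pola2, of DNA polymerase alpha (-3.58), and Rrm2, of ribonucleotide reductase (-3.50). Without organoid 1 the calls of Pola2 (adjusted p = 0.11) and Rrm2 (0.0737) were lost. Gins1, of the replicative helicase, went from 15.4, 17.0 and 16.9 CPM to 0.648, 0 and 0 CPM. Its call was lost without 2D culture 1, 2 and 3 in turn (adjusted p = 0.0793, 0.0776 and 0.0802). Whether the lists differ was not tested. Without 2D culture 1, 2 and 3, 11, 13 and 11 of the 52 replication genes fell, in place of 30.

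**Figure D3:**
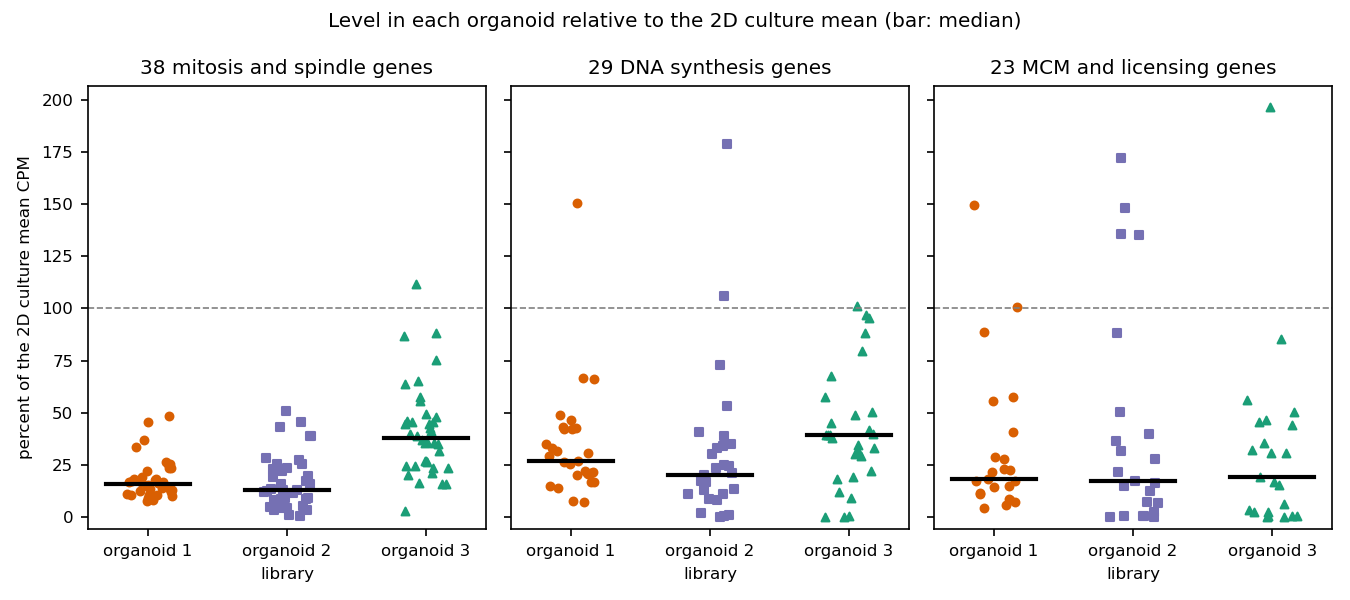
Level of each gene in organoid 1, 2 and 3 as a percent of its mean CPM in 2D culture (dashed line at 100), for the mitosis, DNA synthesis and licensing genes, with the median as a bar. The bar of organoid 3 stands at 37.7% for the mitosis genes, above 15.7% and 13.0%. For the DNA synthesis genes it stands at 39.0%, above 26.6% and 20.0%. The 3 bars of the licensing genes lie between 17.1% and 18.9%.

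Of 141 other genes of mitosis tested, outside the 38, 57 fell and 7 rose, beside 12.6% lower and 14.9% higher of all genes tested. In the kinetochore, spindle and G2/M lists below, the median percent of the 2D mean was highest in organoid 3, at 46.7%, 44% and 52%. It was also highest there for condensin and cohesin genes (89.9%) and lowest there for the anaphase-promoting complex (81.65%). Of 39 other kinetochore and centromere genes 18 fell, 1 rose and 20 did not pass (median -1.82). Cenpi, of the inner kinetochore, fell from 32.6, 28.2 and 27.6 CPM to 3.12, 3.73 and 3.26 CPM (-3.13 ± 0.29, edgeR adjusted p = 0.0009), Ska3, which couples kinetochores to microtubules, by 2.99 and Spc24, the partner of Spc25, by 2.63 on the log2 scale. Bod1, which helps align chromosomes, rose from 5.79, 8.68 and 5.76 CPM to 18.62, 35.9 and 12.2 CPM (1.72 ± 0.48, edgeR adjusted p = 0.0378), a call lost without organoid 1 (adjusted p = 0.0502).

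Among 32 other genes of the spindle, kinesins and cytokinesis 18 fell, 2 rose and 12 did not pass (median -2.00). Cep55, of the midbody, fell by 3.57, the kinesin Kifc1 by 3.07 and Shcbp1, of the midbody, by 2.89 on the log2 scale. Without organoid 1 the calls of Kifc1 (adjusted p = 0.0825) and Shcbp1 (0.0863) were lost and that of Cep55 was not. The same held without each 2D library in turn. Cit, citron kinase of the midbody, went the other way by a wide margin, from 21.3, 24.5 and 23.9 CPM in 2D culture to 449, 806 and 334 CPM in organoids (4.51 ± 0.40, 22.8-fold higher, edgeR adjusted p = 0.000887). It was called higher under every alternative. Cit also makes a shorter form without the kinase, and the files give 1 value per gene, so the forms were not separated. Numa1, which anchors spindle poles, rose from 58.6, 51.6 and 61.3 CPM to 109, 189.8 and 96.0 CPM (1.20 ± 0.30, edgeR adjusted p = 0.0265).

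Of 34 other control genes of G2 and mitosis 14 fell, 2 rose and 18 did not pass (median -1.22). Gtse1, a microtubule protein of G2 and mitosis, fell from 71.8 ± 3.24 CPM (mean ± SD, n = 3) to 11.8, 3.43 and 0.189 CPM in organoid 1, 2 and 3, the repressor E2f7 by 2.82 and Cdca2, which steers a phosphatase on chromosomes, by 2.53 on the log2 scale. The call of Gtse1 was lost without organoid 2 (adjusted p = 0.0828) and without 2D culture 1, 2 and 3 in turn (0.121, 0.11 and 0.112). That of E2f7 was lost with limma-voom and a weight per group and, among the libraries, without 2D culture 3 alone (0.0639). Cdc25a, a phosphatase that activates cyclin-dependent kinases, rose from 15.5, 17.4 and 13.2 CPM to 34.1, 44.0 and 37.5 CPM (1.33 ± 0.24, edgeR adjusted p = 0.0092). Rbl2, p130, a pocket protein of the complex that represses these genes in resting cells, rose from 17.3, 18.005 and 23.2 CPM to 38.5, 27.8 and 47.2 CPM (0.96 ± 0.28, edgeR adjusted p = 0.045). Its call was lost without organoid 1 (adjusted p = 0.0722), without organoid 3 (0.0697), with no filter on low counts and with limma-voom and a weight per group.

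Of 19 condensin and cohesin genes 7 fell, 2 rose and 10 did not pass (median -0.07), and they were split by complex after the values were seen. Of 7 condensin subunits, which compact chromosomes for mitosis, 6 fell and 0 rose (median -1.30), led by Ncapd3 with 1.97 and Ncapg with 1.72 on the log2 scale. The call of Ncapd3 was lost without organoid 1 (adjusted p = 0.0973), and that of Ncapg without organoid 2 (0.0586), without organoid 3 (0.0646) and with limma-voom and a weight per group. Of the 5 ring and STAG subunits of cohesin, which also shape chromatin outside mitosis, 0 were called (median 0.05). Esco2, which acetylates cohesin in S phase, fell by 1.81 (its call was lost with limma-voom and a weight per group), while Mau2, of the loader, and Wapl, the release factor, rose by 1.33 and 1.29. Of 17 genes of the anaphase-promoting complex and its partners 0 were called in either direction by edgeR (median -0.13), with 3 at an unadjusted p under 0.05. DESeq2 called 2 lower and 1 higher (Anapc7), limma-voom 2 lower, and the fit with total library size 5 lower. Without organoid 1 edgeR called 1 lower, without organoid 2 it called 1 lower and 1 higher, and without organoid 3 it called 2 lower. Its 14 subunits had changes from -0.82 to 0.60. Without 2D culture 1, 2 and 3 the number of genes that fell over these 5 lists was 11, 13 and 9, in place of 57, and that of genes that rose was 1 each time, Cit, in place of 7. Of the genes named above as falling, Ska3, Kifc1, Shcbp1, Gtse1, Ncapd3, Ncapg and Esco2 lost their calls each time. Cenpi, Spc24, Cep55 and Cdca2 kept theirs each time.

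**Figure D4:**
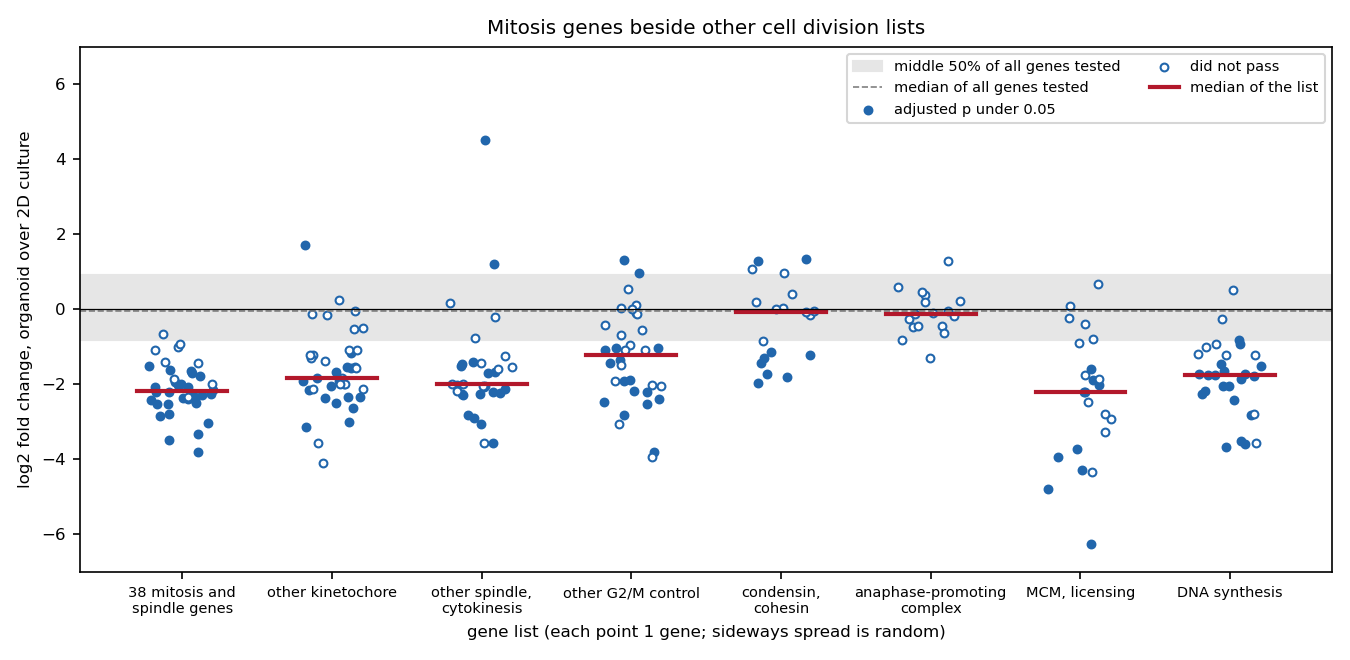
Log2 fold change of organoid over 2D culture for each gene of 8 lists, with filled points for genes past an adjusted p of 0.05, the median of each list as a red bar, and the middle 50% of all genes tested in grey. The 38 mitosis and spindle genes all lie below 0 (median -2.17), and the anaphase-promoting complex lies around 0 (median -0.13).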

How the data were processed

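mRNA was sequenced in 3 libraries of 2D culture and 3 of organoid, grouped and numbered by their titles. The authors deposited expected counts per gene, which can be fractional and are not normalised. Per the submitters' processing notes HISAT, HISAT2, Bowtie2, RSEM and DESeq2 were used, with no versions or roles. The build, the annotation and the strand setting were not given in the sources used, and genes carry the files' symbols. Counts were rounded, filtered by filterByExpr (minimum count 10; 13052 of 17954 genes kept), scaled by TMM (factors 1.23 to 1.27 for 2D culture and 0.662 to 0.896 for organoids) and tested in R 4.3.3 with edgeR 4.0.16 (robust quasi-likelihood F-test, no replicate block, Benjamini-Hochberg at 0.05 over all genes tested). The SE was taken from F, as |log2 fold change| divided by its square root. Alternatives were total library size, DESeq2 size factors, DESeq2 1.42.0, limma-voom (limma 3.58.1) without and with a weight per group, no low-count filter, a replicate block, and each library left out. With 3 counts as the limit of a count of 0, 0.0917 to 0.18 CPM could be missed. Every pair of libraries differed beyond sampling noise (chi-square divided by its degrees of freedom at least 8.8). The code was tested on simulated data. All members are named; of each other list, up to 3 called genes with the largest fall and up to 2 with the largest rise of at least 1 CPM. Members and lists were chosen with earlier results of these data known. Among the listed genes, Haus2, Haus6, Ncaph, Calcr, Dcstamp and Ocstamp were not analysed here.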

Additional observations from a re-analysis of the deposited data

How the results depend on the processing

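All 494 alternative fits of a single member kept its negative sign, and the number that fell was 28 to 36 under the 7 alternatives that keep all libraries and 13 to 35 with 1 library left out. With total library size the median of all genes moved by -0.61 and that of the members to -2.73, so that relative to all genes it was -2.08, against -2.14 with TMM. Total library size turned all calls to 1063 higher and 3529 lower, and limma-voom gave 2533 lower. Leaving out a library gave 399 to 2574 genes lower and 703 to 2747 higher, 9 to 77 other mitotic genes lower and 1 to 9 higher, and 11 to 36 replication genes lower. Total library size left 1 other mitotic gene higher, Cit: Bod1, Numa1, Cdc25a, Rbl2, Mau2 and Wapl did not pass. For replication genes the higher calls were 1 (Orc3) with DESeq2 and 1 (Orc3) with limma-voom, and 0 to 1 with a library left out (Orc3 without organoid 2, Rfc1 without organoid 3). Same-numbered libraries did not pair (correlations of deviations 0.061, 0.187 and 0.021, and not every library correlated best with its own number), and the replicate block gave 32 members lower (Top2a, Aurkb and Spc25 added to the 29), 60 other mitotic genes lower and 5 higher (without Numa1 and Rbl2), 29 replication genes lower, and 1289 genes lower and 1441 higher over all genes. The fit uses 1 spread per gene for both groups, and the organoids vary more (median SD of log2(CPM + 1) over the members 0.854, against 0.091 in 2D culture). The cause of the loss of calls without a 2D library was not tested.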

Other observations

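Some genes were nearly missing from a single organoid while present in the others. With at most 5 counts in 1 library and at least 100 in both others of its group, there were 123 such genes among 17954 in organoids (4 low in organoid 1, 41 in organoid 2 and 78 in organoid 3) and 0 in 2D culture. Beside Ccna2 they included Nek2, a centrosome kinase, with 196, 0 and 258 counts in organoid 1, 2 and 3, and Nsl1, of the kinetochore, with 136, 0 and 246. Among replication genes they included Mcm3, with 130.0, 108 and 4 counts, and Gins4, of the replicative helicase, with 130.0, 254 and 1. In 2D culture each of these genes had at least 660 counts in every library. These genes were chosen after their values were seen, and no cause was tested.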
